A study of Mus musculus with 6 samples.

Results

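The 10 myosin light chain genes Myl1, Mylpf, Myl2, Myl3, Myl4, Myl6, Myl6b, Myl9, Myl10 and Myl12a were followed in mouse hind leg muscle. They were chosen by symbol from the 16759 genes of the deposited expression table, and all 10 were found there. Myosin is the motor of muscle contraction, and each of its heavy chain heads carries an essential and a regulatory light chain. The essential chain stiffens the lever arm that swings during the power stroke. The regulatory chain tunes the motor, and in smooth muscle and nonmuscle cells its phosphorylation by myosin light chain kinase switches the motor on. Fast and slow skeletal fibres, embryonic fibres, heart, smooth muscle and nonmuscle cells use different members of the family, so that light chains are used alongside heavy chains to type muscle fibres.

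The libraries came from male C57BL/6J mice that were 8 weeks old at the start, with 3 mice in the untrained group (Con) and 3 in the exercise group (EX), and 1 library per mouse. In 6 weeks of treadmill training, EX mice ran in 60 min sessions, 5 of them a week, covered 22 km each, and were killed 24 h after their last session. Con mice were not trained on the treadmill. Mice were perfused with phosphate buffered saline, fat between the muscles was taken away, and a small piece of hind leg muscle was used, without a statement of which muscle it was. Total RNA was sequenced in pairs of 150 bases on the DNBseq platform. Counts on genes totalled between 13845362 and 15585048 in the Con libraries and between 16080487 and 16240431 in the EX libraries. Levels below are given as CPM (estimated counts scaled to a common library size, with TMM factors) or, where genes were compared with each other, as the FPKM values of the authors, which divide by transcript length. The most that a count of 0 allows in a library is 3 counts, or 0.188 to 0.215 CPM, a limit for counting error alone.

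The members fall into 5 essential chains (Myl1, Myl3, Myl4, Myl6 and Myl6b) and 5 regulatory chains (Mylpf, Myl2, Myl9, Myl10 and Myl12a). By tissue, Myl1 and Mylpf are the pair of fast fibres, Myl2 and Myl3 the pair of slow fibres and heart ventricle, and Myl4 the chain of embryonic muscle and heart atrium. Myl6, Myl6b, Myl9 and Myl12a serve smooth muscle and nonmuscle cells, and Myl6b is also known from slow fibres. Myl10 was kept apart from these classes.

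The 250 bases before the start sites of the fast and slow chains are shown. The fast pair carries most of the light chain transcripts, and the slow chain Myl2 had the largest change between the groups. The sequences are from RefSeq on GRCm38.p6, run 5' to 3' on the strand of the gene, and have matches to searched motifs in capitals. The motifs were the E-box CANNTG, the core that muscle regulatory factors such as MyoD bind and which reads the same on both strands, the CArG box, and the MEF2 consensus. Myl2 has more than 1 annotated start, and both of its windows are given. For Myl1, only 1 window was searched, so that any other start site of the gene is not covered.
Myl1 (chr1:66945057-66945306, minus strand): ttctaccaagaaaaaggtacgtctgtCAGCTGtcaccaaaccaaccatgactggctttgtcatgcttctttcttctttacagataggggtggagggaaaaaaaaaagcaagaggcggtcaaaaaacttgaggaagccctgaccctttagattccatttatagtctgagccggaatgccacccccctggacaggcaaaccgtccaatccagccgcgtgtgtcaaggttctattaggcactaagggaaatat
Mylpf (chr7:127211358-127211607, plus strand): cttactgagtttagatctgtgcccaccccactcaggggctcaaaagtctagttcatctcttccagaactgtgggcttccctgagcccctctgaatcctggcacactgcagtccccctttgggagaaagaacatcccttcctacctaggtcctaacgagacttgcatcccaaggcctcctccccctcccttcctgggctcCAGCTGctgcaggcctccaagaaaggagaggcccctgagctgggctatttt
Myl2, start 1 (chr5:122092474-122092723, plus strand): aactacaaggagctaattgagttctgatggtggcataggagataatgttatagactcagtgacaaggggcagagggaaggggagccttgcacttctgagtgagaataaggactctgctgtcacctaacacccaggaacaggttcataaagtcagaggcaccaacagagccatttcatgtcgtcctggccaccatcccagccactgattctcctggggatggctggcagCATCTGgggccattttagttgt
Myl2, start 2 (chr5:122092939-122093188, plus strand): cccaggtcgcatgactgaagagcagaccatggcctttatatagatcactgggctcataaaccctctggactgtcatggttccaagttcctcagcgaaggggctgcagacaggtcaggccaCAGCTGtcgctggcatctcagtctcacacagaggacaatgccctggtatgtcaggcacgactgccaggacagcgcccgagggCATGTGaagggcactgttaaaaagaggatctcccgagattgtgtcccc
Myl3 (chr9:110763428-110763677, plus strand): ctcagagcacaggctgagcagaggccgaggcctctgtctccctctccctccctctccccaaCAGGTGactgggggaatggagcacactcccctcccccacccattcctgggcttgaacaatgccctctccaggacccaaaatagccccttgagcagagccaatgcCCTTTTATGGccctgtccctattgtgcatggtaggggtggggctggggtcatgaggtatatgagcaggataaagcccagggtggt
An E-box was found in every one of these windows, and 66.2% of the 32851 windows of the same length in the RefSeq table hold at least 1. No E-box was found in the windows of Myl4, Myl9 and Myl10, or in that of start 2 of Myl6, which are not shown. The match in Mylpf lay at bases -51 to -46 from the start, that in Myl1 at -224 to -219, and that in Myl3 at -189 to -184. In Myl2, the first window held its match at -22 to -17, and the second held matches at -130 to -125 and -48 to -43. The second capital run in Myl3, at -85 to -76, was a CArG box, the element bound by serum response factor, which 1.47% of all windows hold. Myl9 and one window of Myl6 also held a CArG box. The MEF2 consensus was found in 2.92% of all windows and in no window of a light chain, which says only that these letters were not in these windows.

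Exercise training was accompanied by higher transcript levels of the sarcomeric light chains, and the step was by far largest for Myl2. All 10 members passed the filter of a mean of at least 1 FPKM. In the quasi-likelihood test of edgeR, adjusted by Benjamini-Hochberg over all 10883 genes tested, 6 members passed the threshold of an adjusted p of 0.05. Of all genes tested, 17.9% passed it, 9.11% as higher and 8.8% as lower in EX. DESeq2, limma on FPKM and limma on TPM also called 6 members each, against 11.3%, 13.3% and 18.6% of all genes, but both limma fits called 4 higher and 2 lower, with Myl12a in place of Myl1. In edgeR, Myl1, Mylpf, Myl2, Myl3 and Myl4 rose, Myl10 fell, and Myl6, Myl6b, Myl9 and Myl12a did not pass. The median log2 fold change was 0.26 over the members and -0.0009 over all genes tested. In CPM, 8 of the 10 members had groups that did not overlap, against 33.7% of all genes tested. Over all genes, the calls were 991 higher and 958 lower in edgeR, and 772 and 1259 in edgeR with totals that leave out the 20 most abundant genes. They were 411 higher and 1037 lower with limma on FPKM and 340 and 1684 with limma on TPM, fits that differ in test and unit as well as in scaling. With FPKM and TPM, the median over all genes shifted to -0.06 and -0.09 on the log2 scale, and the member values below are from edgeR unless stated. In bulk tissue, fewer cells of a type and less RNA per cell cannot be told apart.

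**Figure D1:**
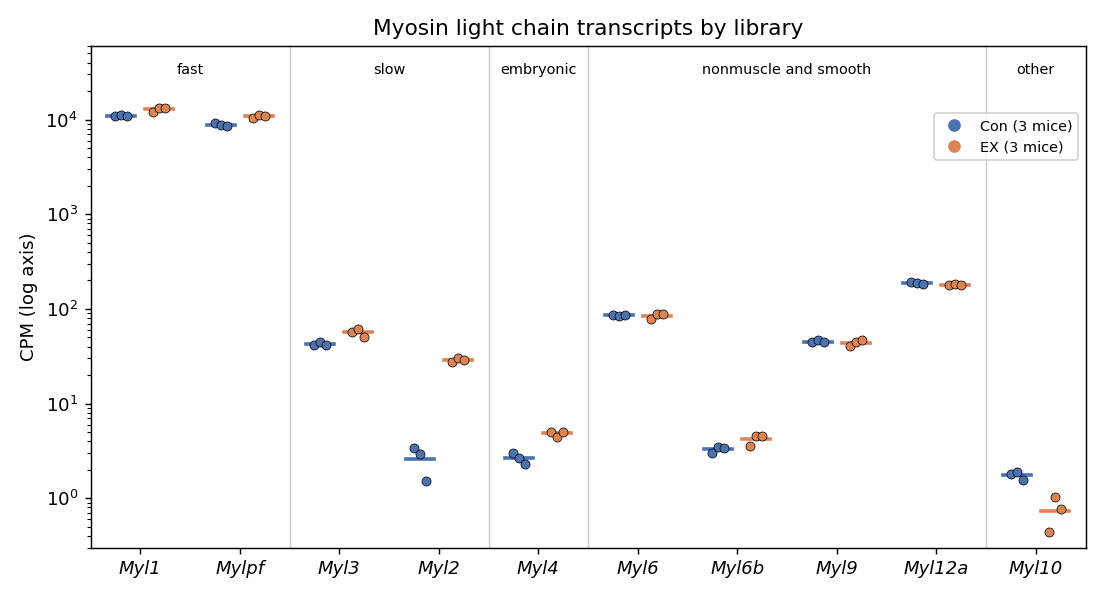
Level of each of the 10 light chains in the 6 libraries, in CPM on a log axis, with a point for each mouse and a bar at the group mean of 3 mice. Myl2 moved from between 1.51 and 3.37 CPM in Con to between 27.2 and 29.9 CPM in EX, while Myl6 and Myl9 overlapped between the groups.

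The fast pair made up most of the light chain transcripts in every library. Together, Myl1 and Mylpf took between 2.0% and 2.03% of all counts in Con and between 2.23% and 2.37% in EX. Myl1, which encodes the fast essential chain, was at 11044, 11075 and 10999 CPM in Con replicates 1 to 3 and at 12136, 13254 and 13152 CPM in EX replicates 1 to 3. All EX values of Myl1 lay above all Con values, and the Con mice lay closer together than the EX mice. The log2 fold change of Myl1 was 0.22 ± 0.03 (SE, n = 3 per group; edgeR, adjusted p = 1.8e-05). The call of Myl1 was lost with limma on log2(FPKM + 0.1), which gave 0.14 with an adjusted p of 0.056, and with limma on TPM, which gave 0.10 with an adjusted p of 0.084. Mylpf, the fast regulatory chain, was at 9153, 8766 and 8544 CPM in Con and at 10476, 11129 and 11035 CPM in EX. The groups did not overlap for Mylpf either, and its log2 fold change was 0.30 ± 0.03 (SE, n = 3 per group; edgeR, adjusted p = 1.1e-07). For Mylpf, the change lay between 0.20 and 0.33 over all settings and passed the threshold in each. The gene Septin1 overlaps Mylpf in the RefSeq annotation and was not analysed here.

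Myl2, the slow regulatory chain, showed the largest change of the family. In counts, it was at 47, 46 and 24 in Con replicates 1 to 3 and at 432, 470 and 457 in EX replicates 1 to 3. These are 3.37, 2.93 and 1.51 CPM against 27.2, 29.9 and 29.0 CPM, so that the lowest EX mouse stood far above the highest Con mouse and Con replicate 3 was the lowest of all. The group means were 2.60 ± 0.975 CPM in Con and 28.7 ± 1.36 CPM in EX (SD, n = 3 per group). The log2 fold change of Myl2 was 3.48 ± 0.13 (SE; edgeR, adjusted p = 1.1e-17), which is an 11.2-fold higher level in EX. It stayed between 3.19 and 3.69 over all settings. Ccdc63, a gene that overlaps Myl2, had between 0 and 1 counts in the libraries.

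Myl3, the slow essential chain, rose far less than its regulatory partner. It was at 42.0, 44.8 and 41.2 CPM in Con and at 57.1, 61.3 and 51.0 CPM in EX. The groups did not overlap, and EX replicate 3 was the EX mouse nearest to Con. The log2 fold change of Myl3 was 0.40 ± 0.06 (SE, n = 3 per group; edgeR, adjusted p = 1.2e-05), and it lay between 0.31 and 0.47 over all settings. In Con, Myl3 was thus detected at a level well above that of Myl2, the chain it shares a slow fibre myosin with.

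**Figure D2:**
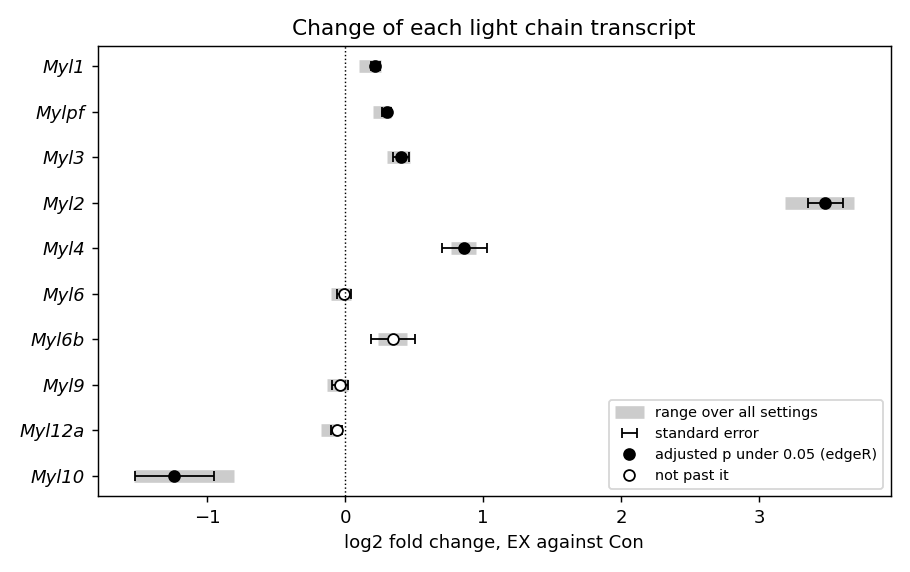
Log2 fold change of EX over Con for each light chain from edgeR, with black bars for the SE, grey bars for the range over all settings, and filled points for members past the threshold. Myl2 at 3.48 stands apart from the other members, which lie between -1.24 and 0.86.

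The ratio of the slow regulatory to the slow essential chain set both changes against each other on the FPKM scale. Myl2 per Myl3 was 0.138, 0.113 and 0.0638 in Con replicates 1 to 3 and 0.827, 0.845 and 0.973 in EX replicates 1 to 3. The slow regulatory chain was thus scarce relative to the essential one in every Con mouse and near it in every EX mouse. The difference of the log2 ratio was 3.14, and a two-sided exact permutation test gave p = 0.1, which is the smallest value that 3 against 3 mice allow. For the fast pair, Mylpf per Myl1 was 1.02, 0.976 and 0.965 in Con and 1.08, 1.05 and 1.05 in EX. All EX ratios of the fast pair were higher than all Con ratios, by 0.10 on the log2 scale (two-sided exact permutation test, p = 0.1).

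Shares of the light chain transcripts were then computed from FPKM in each library. The slow share of the regulatory sarcomeric chains, Myl2 of Myl2 and Mylpf, was 0.0468%, 0.0425% and 0.0226% in Con and 0.331%, 0.342% and 0.331% in EX. It stayed under 1% in every mouse, and the mean moved from 0.0373% ± 0.0129 to 0.335% ± 0.00612 (SD, n = 3 per group; two-sided exact permutation test, p = 0.1). The slow share of the essential sarcomeric chains, Myl3 of Myl3 and Myl1, was 0.344%, 0.366% and 0.340% in Con and 0.431%, 0.424% and 0.357% in EX. Here the groups overlapped, because EX replicate 3 lay under Con replicate 2, and the exact permutation test gave p = 0.2. The mean essential share was 0.350% ± 0.0143 in Con and 0.404% ± 0.0411 in EX (SD, n = 3 per group), so that the regulatory share stood well under it in Con and nearer to it in EX.

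Of all 10 light chains together, the slow pair made up 0.193% ± 0.0111 in Con and 0.365% ± 0.0211 in EX (SD, n = 3 per group; two-sided exact permutation test, p = 0.1). The fast pair made up 98.8% ± 0.0116 in Con and 98.8% ± 0.0147 in EX, with overlapping groups and a difference of 0.00768 percentage points (exact permutation test, p = 0.6). That difference was 5.0e-05 percentage points without EX replicate 3 and 0.0147 without EX replicate 2, and from estimated counts, which are not divided by length, it was 0.161 with separate groups (exact permutation test, p = 0.1). The 4 smooth muscle and nonmuscle chains made up 1.03% ± 0.0141 in Con and 0.847% ± 0.00975 in EX, and their share was lower in every EX mouse than in every Con mouse (exact permutation test, p = 0.1). Since shares sum to a fixed total, the lower nonmuscle share does not show by itself that these transcripts fell. Transcript levels are not protein levels, and protein was not analysed here.

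**Figure D3:**
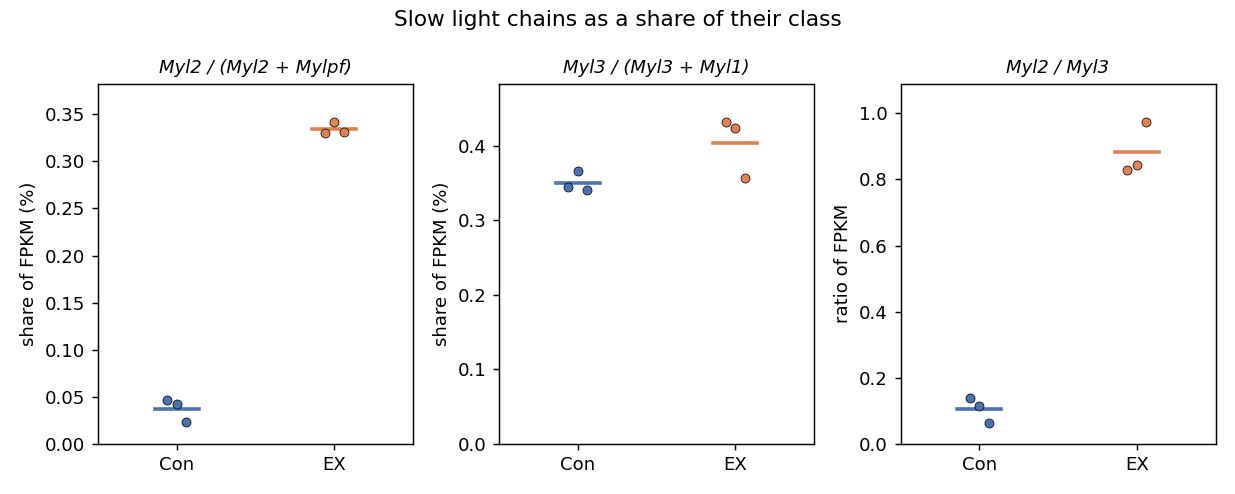
Slow share of the regulatory chains and of the essential chains, in percent of FPKM, and the ratio of Myl2 to Myl3, with a point per mouse and a bar at the mean of 3 mice. The regulatory share separates the groups, with 0.0226% to 0.0468% in Con and 0.331% to 0.342% in EX, while the essential share overlaps between them.

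By FPKM, the order of the members also moved between the groups. In Con, Myl1 and Mylpf led with overlapping ranges, followed by Myl6, Myl12a, Myl3 and Myl9 without overlap between neighbours, then by Myl2 and Myl6b, whose ranges overlapped, and by Myl4 and Myl10. Con levels of Myl2 ran from 4.66 to 9.94 FPKM and those of Myl6b from 4.30 to 5.06 FPKM. In EX, Mylpf stood above Myl1, with 24027 to 25001 FPKM against 22247 to 23844 FPKM. Myl2 reached 79.7 to 85.7 FPKM in EX and overlapped Myl3, which had 84.6 to 101 FPKM. Myl4 stood above Myl6b in EX, with 6.78 to 7.80 FPKM against 5.05 to 6.24 FPKM.

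Myl4, the essential chain of embryonic muscle and atrium, was low and rose. Its counts were 42, 42 and 37 in Con and 80, 70 and 79 in EX, or 3.01, 2.67 and 2.32 CPM against 5.05, 4.46 and 5.02 CPM. The groups did not overlap, and the log2 fold change was 0.86 ± 0.16 (SE, n = 3 per group; edgeR, adjusted p = 2.7e-04), with a range of 0.76 to 0.95 over all settings. Cdc27, a gene of the cell division machinery that overlaps Myl4, had between 466 and 549 counts and a log2 fold change of -0.10 (edgeR, adjusted p = 0.24). Genes of embryonic or regenerating fibres were read beside Myl4, and both that passed the filter rose: Actc1, the cardiac actin of developing muscle, by 1.65 and Myog, a differentiation factor, by 0.99 on the log2 scale. The embryonic heavy chain gene Myh3, the perinatal Myh8 and the fusion gene Mymk lay under the filter and were higher in the fit without it, with log2 fold changes of 2.95, 2.10 and 4.73. Of the 4 heart muscle markers listed, 3 were in the table and all 3 lay under the filter, with a summed level of 0.783 to 1.25 CPM in Con and 0.440 to 0.952 CPM in EX. Nppa, the atrial peptide gene, had 1 count in EX replicate 1 and 0 in all other libraries.

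The smooth muscle and nonmuscle chains did not pass the threshold. Myl6, their main essential chain, was at 85.9, 83.7 and 86.1 CPM in Con and at 78.5, 88.3 and 87.4 CPM in EX. Its groups overlapped, and the log2 fold change was -0.01 ± 0.05 (SE, n = 3 per group; edgeR, adjusted p = 0.93). Myl9, the smooth muscle regulatory chain, was at 44.3, 46.4 and 44.5 CPM in Con and at 40.2, 44.5 and 47.2 CPM in EX. The groups overlapped for Myl9 as well, with a log2 fold change of -0.04 ± 0.06 (SE, n = 3 per group; edgeR, adjusted p = 0.72). The sign of Myl6 and of Myl9 turned to positive when EX replicate 1, the lowest EX library for both, was left out.

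Myl6b was at 3.01, 3.50 and 3.39 CPM in Con and at 3.60, 4.52 and 4.51 CPM in EX. In CPM, every EX value lay above every Con value, while in FPKM EX replicate 1 at 5.05 lay just under Con replicate 2 at 5.06. Counts of Myl6b were only 42 to 71 a library, and its log2 fold change of 0.35 ± 0.16 missed the threshold (SE, n = 3 per group; edgeR, adjusted p = 0.14). Myl12a, a nonmuscle regulatory chain, was at 192, 188 and 185 CPM in Con and at 179, 183 and 179 CPM in EX. Its EX values were all lower, with a log2 fold change of -0.06 ± 0.04 (SE, n = 3 per group; edgeR, adjusted p = 0.30). On the FPKM scale, limma gave -0.14 for Myl12a with an adjusted p of 0.025, a call that edgeR on counts did not make. Myl12a shares near-identical sequence with Myl12b, so that how reads were divided between them is uncertain. In Con replicate 1 their estimated counts of 2673.18 and 293.82 summed to 2967, while in the other 5 libraries both counts were whole. Myl12b itself had a log2 fold change of 0.02 (edgeR, adjusted p = 0.89).

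Markers of the other cells in the piece were read beside these chains. Of the 6 smooth muscle markers, Acta2 rose by 0.15 and Myh11 fell by 0.30 on the log2 scale, 4 did not pass, and the summed level of the list was 275 to 292 CPM in Con and 266 to 279 CPM in EX. The call of Acta2 (edgeR, adjusted p = 0.034) was lost in 11 of 16 settings, the fits without Con replicate 2 or 3 or any one EX replicate among them. All 4 pericyte markers fell, with a summed level of 781 to 811 CPM in Con and 621 to 641 CPM in EX, and 3 of 4 endothelial markers fell, from 526 to 537 CPM to 451 to 473 CPM, although the endothelial count ranged from 1 without EX replicate 3 to 4 without Con replicate 1. Of the pericyte markers, Cspg4 lost its call in 5 of 15 settings, with DESeq2, with limma on FPKM at either pseudocount, and without Con replicate 1 or EX replicate 2. Of the 4 fibroblast markers, 1 rose, and of the 3 macrophage markers tested, 2 rose. The 4 B and T cell markers lay under the filter, with a sum of 0.626 to 1.99 CPM in Con and 0.506 to 0.571 CPM in EX, and Cd3e had 1, 1 and 0 counts in Con and 0 in each EX library. Of the 5 markers of skeletal fibres as a whole, Acta1 rose by 0.22 and 4 did not pass, and the summed level of the list was 119874 to 126391 CPM in Con and 127961 to 134678 CPM in EX. Without Con replicate 1, 2 of these markers passed. The part of these cells in the values of Myl6, Myl6b, Myl9 and Myl12a was not tested.

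Myl10, a further regulatory chain, was the rarest member and the only one of the 10 that fell in edgeR. Its counts were 25, 30 and 25 in Con and 7, 16 and 12 in EX, or 1.79, 1.91 and 1.57 CPM against 0.44, 1.02 and 0.76 CPM. Every EX value lay under every Con value, and EX replicate 1 was the lowest. The log2 fold change of Myl10 was -1.24 ± 0.28 (SE, n = 3 per group; edgeR, adjusted p = 2.4e-03), which corresponds to 0.424 of the Con level. Over the settings it ranged from -1.53 to -0.81, and it was not tested under the stricter filter of 5 FPKM. With so few counts, the size of this change is the least precise of the called members.

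Counts and FPKM of a gene together give the transcript length that the authors' software used for it, which can differ between libraries if isoforms of the gene were weighed differently. Myl1 is known to give a long and a short form of the fast essential chain from separate start sites. After the median shift of all genes in a library was taken off, the length of Myl1 was 530.7, 531.8 and 533.3 bases in Con replicates 1 to 3 and 538.8, 538.1 and 539.4 bases in EX replicates 1 to 3. The groups did not overlap, and the difference was 6.83 bases, or 1.28% (two-sided exact permutation test, p = 0.1). By contrast, Mylpf came out at 431.0 bases in each of the 6 libraries. Myl12a was longer in EX by 18.9 bases, or 1.40%, also with no overlap (exact permutation test, p = 0.1). Without the correction for the library shift, the differences were 8.83 bases for Myl1 and 20.9 bases for Myl12a. These were 2 of 10 members, against 7.7% of 10873 genes without overlap before and 13.0% after the correction. Myl4 and Myl10 varied widely among the mice of a group and overlapped between groups, with 697 ± 30.4 bases in Con and 647 ± 17.4 bases in EX for Myl4, and 691 ± 137 and 662 ± 195 bases for Myl10 (SD, n = 3 per group).

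**Figure D4:**
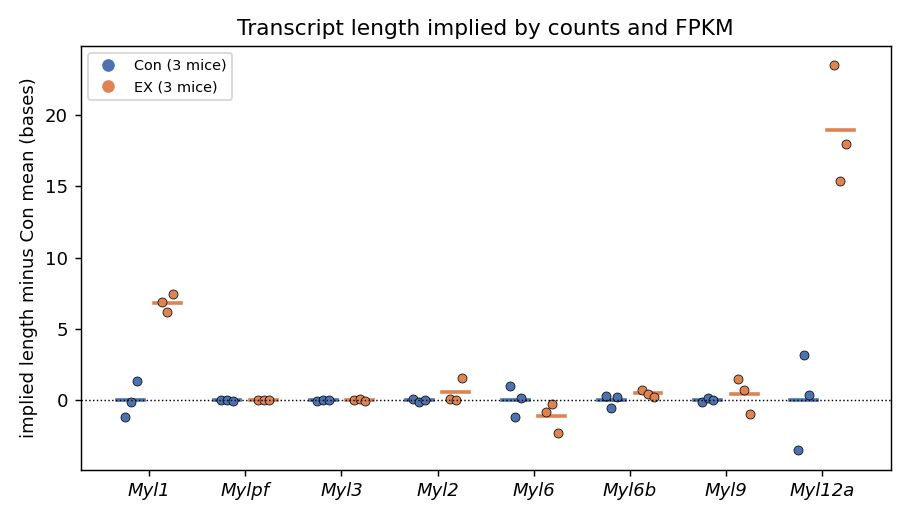
Transcript length implied by count and FPKM for 8 light chains in each library, as the difference in bases from the Con mean, after the shift of the library was taken off, with a point per mouse and a bar at the group mean. Myl1 lies 6.83 bases and Myl12a 18.9 bases higher in EX, and Mylpf stays at 431.0 bases, while the widely varying Myl4 and Myl10 are not drawn.

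The heavy chains that light chains sit on were read from a list of 12 genes, of which 8 passed the filter. Myh7, the slow heavy chain, rose from 0.93, 0.89 and 1.19 CPM in Con to 99.5, 111 and 96.7 CPM in EX, a log2 fold change of 6.65 ± 0.11 (SE, n = 3 per group; edgeR, adjusted p = 2.3e-26). Myh7 was at a mean of 0.177 FPKM in Con and 17.4 FPKM in EX, so that it passed the filter only through EX, the group where it is high, and its call is given as a description. Of the fast heavy chains, Myh2, of type IIa fibres, fell by 0.75 and Myh1, of type IIx fibres, fell by 0.09 (edgeR, adjusted p = 0.047), while Myh4, of type IIb fibres, had a log2 fold change of 0.04 and did not pass (edgeR, adjusted p = 0.41). The call of Myh1 was lost in 5 of 16 settings, which were the replicate block (adjusted p = 0.073) and the fits without Con replicate 2, Con replicate 3, EX replicate 1 or EX replicate 3. In edgeR, the fast light chains Myl1 and Mylpf thus rose where none of these 3 fast heavy chains did, a difference between genes that was not tested. The nonmuscle and smooth heavy chains Myh9, Myh10 and Myh11 fell by 0.20, 0.31 and 0.30, and Myh14 did not pass. Among the other slow fibre markers, the slow troponin genes Tnnc1 and Tnnt1 rose by 4.84 and 4.26, and Atp2a2 and Tpm3 by 1.13 and 0.58 on the log2 scale. The slow troponin gene Tnni1, at 4.84, also passed the filter only through EX, with means of 0.537 FPKM in Con and 14.8 FPKM in EX. The summed level of the 6 slow fibre markers, Myh7 included, went from 99.0 to 103 CPM in Con to 334 to 353 CPM in EX.

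Regulatory chains are phosphorylated by calmodulin-bound kinases and dephosphorylated by a phosphatase of the PP1 family. Of 18 genes of this machinery, 17 were tested, 4 rose, 2 fell and 11 did not pass. The calmodulin genes Calm2 and Calm3 rose by 0.33 and 0.22 on the log2 scale. Mylk, the smooth muscle kinase, fell by 0.25, and Mylk2, the skeletal muscle kinase, fell by 0.10 (edgeR, adjusted p = 0.041), a call that was lost in 6 of 16 settings, with the replicate block (adjusted p = 0.058) among them. The related kinase Mylk4 was at 3391 to 3664 CPM in Con and at 3670 to 3805 CPM in EX and did not pass. These changes were small, and with 1 library left out in turn the count of genes that passed ranged from 3 without EX replicate 3 to 8 without Con replicate 3.

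For the called members, the genes with the most similar pattern were found by the root mean square difference of log2 CPM, each gene centred on its mean, over the 6 libraries. The measure is dominated by the difference between the groups, and it says nothing of shared function. For Myl2, the nearest genes were Tnnt1, Tnni1 and Tnnc1, at 0.39, 0.53 and 0.66. Nearest to Myl3 were Inka2, Zbtb49 and Tm6sf1, at 0.03, 0.05 and 0.05. Myl1 was closest to Nans, Cd99l2 and Rilp, and Mylpf to Wls, Sparc and C3, all at 0.01 to 0.02. Myl4 was closest to Angptl7, Fosl2 and Mfap4, at 0.07, 0.08 and 0.09, and Myl10 to Serpina1c, Ahsg and Gkn3, at 0.25, 0.25 and 0.26.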

How the data were processed

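RNA of hind leg muscle from 3 Con and 3 EX mice was analysed, with 1 library per mouse, grouped by the submitters' labels. The authors filtered the reads and, per their methods, mapped them with HISAT to GRCm39, while the submitters' processing notes name GRCm38.p6, MultiQC, cutadapt and featureCounts. The role of each tool and whether strand was used are not given in the sources used here, and between 4.18% and 4.44% of the deposited counts in a library were not whole. For each gene and library, the authors' deposited values are estimated counts, FPKM and TPM, with libraries kept apart, and 6 columns of group means were not used.

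Estimated counts were rounded to whole numbers and tested with edgeR 4.0.16 (TMM, glmQLFit and glmQLFTest) in R 4.3.3, over the 10883 of 16759 genes whose mean reached 1 FPKM, with Benjamini-Hochberg adjustment and a threshold of 0.05 without a fold limit. Members under a filter would have been taken from the fit without it. Shares, ratios and implied lengths (count divided by FPKM and library total) were compared by two-sided exact permutation tests, without adjustment over the members although one was planned for the lengths. The alternatives were DESeq2 1.42.0, limma 3.58.1 on log2(FPKM + 0.1), log2(FPKM + 1) and log2(TPM + 0.1), other scalings and filters, a replicate block and each library left out. The limma fold changes are on the log2(value + pseudocount) scale, which understates changes of low genes. The correction of implied lengths for the library shift was chosen after seeing the data. All 10 members were named, and of each list at most 4 genes a direction with the largest change were to be named. Further genes of the lists were picked with their values known, and some list members are not reported here by name. The members and lists were chosen with earlier results of these data known. Tested on counts simulated for EX against Con with 10883 genes, edgeR recovered 58% of genes changed by 1.25-fold and 99.3% of genes changed by 2-fold, and 4.40% of its calls were false. Far fewer genes were changed in the simulation than were called in the data, and genes with low mean counts were not among them. Its dispersion was set by a formula, so that these rates need not hold for low members such as Myl10.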

Additional observations from a re-analysis of the deposited data

How the results depend on the processing

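Of 149 values of the members' log2 fold changes under other settings, 141 kept their direction and side of the threshold. Myl1 lost its call in the 3 limma settings, at 0.14, 0.14 and 0.10, and Myl12a gained one in the same 3, and the cause was not tested. Without EX replicate 1, Myl6 and Myl9 turned to positive. Over the libraries left out in turn, Myl6 ranged from -0.039 to 0.044, Myl9 from -0.090 to 0.025, and Myl10, the rarest member, from -1.53 to -0.97. The 6 called members passed in every one of these fits, and the count of all genes past the threshold ranged from 1344 without EX replicate 3 to 1857 without Con replicate 1. With DESeq2, 1228 genes passed in place of 1949, and 6 members did. With a filter of 5 FPKM, Myl10 was not tested and 5 members passed.

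With estimated counts in place of FPKM, the difference of EX from Con was 0.234 percentage points for the slow share of regulatory chains in place of 0.297, 0.130 for the slow share of all light chains in place of 0.172, 0.161 for the fast share in place of 0.00768, and -0.292 for the nonmuscle share in place of -0.182. Counts are not divided by length, and the fast groups then did not overlap (exact permutation test, p = 0.1).

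The labels give no batch, and same-numbered libraries did not deviate together (correlations of -0.084, -0.052 and -0.073). With the replicate number as a block, 1782 genes and 6 members passed. The 3 mice a group, 1 piece of muscle each, limit the precision, and no exact test can go below p = 0.1. Since the muscle that each piece came from is not stated, differences in sampling and in training between the groups cannot be told apart.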
